A study of Sus scrofa with 90 samples.

Results

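Beta-actin (ACTB), cofilin-1 (CFL1) and alpha-tubulin 1B (TUBA1B) were followed in pig Longissimus dorsi muscle, the long muscle of the back, after an intramuscular injection of propylene glycol, a liquid in which drugs for injection are dissolved. A feature is a spotted cDNA of the nylon array, and it was taken for these genes where the platform annotation gives it ACTB, CFL1 or TUBA1B as its single gene symbol and the table holds a value for it in every column. The annotation lists 19 such features, and 10 of them had values: 7 of 13 for ACTB, 2 of 4 for CFL1 and 1 of 2 for TUBA1B. They are 10 of the 1908 features measured, and each is named here by its symbol and its number on the array ("ACTB 7799"). The study used 10 piglets, C to L. Per the labels, each piglet was given 4 propylene glycol injections at staggered times and at randomised sites, so that lesions aged 6 h, 2 d, 7 d and 21 d and a site that was not injected could be sampled from the same animal. The 48 samples listed were 10 controls and 38 lesions. Lesions aged 6 h and 2 d came from all 10 pigs, those aged 7 d from 9 (pig J not listed) and those aged 21 d from 9 (pig L not listed). All sites of an animal, control included, shared its exposure to the other injections, since control and lesions lay in the muscles of the same pig. Strain, sex and age of the piglets were not given in the sources used here.

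Actin and tubulin build the filaments and tubes that give a cell its shape and carry its cargo. ACTB encodes a cytoplasmic actin present in nearly all cells, which a mature muscle fibre holds beside much larger amounts of the sarcomeric alpha-actin that drives contraction. CFL1 encodes the cofilin of non-muscle cells, a protein that severs and depolymerises actin filaments and so returns actin monomers for new growth. TUBA1B encodes an alpha-tubulin, which pairs with beta-tubulin to form microtubules. In injured muscle, cytoplasmic actin and tubulin are known mainly from the cells that invade, divide or migrate there, such as macrophages, fibroblasts, endothelial cells and myoblasts.

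The values are logarithms of the hybridisation signal, of a base not given in the sources used here, and were quantile-normalized, so that all arrays have the same distribution. A value near 0 lies near the middle of an array. Differences are lesion minus control in these log units, from limma with the animal as a block, and p-values are two-sided and adjusted by the Benjamini-Hochberg method over all 1908 features. The term called is used of features whose adjusted p was under 0.05. The 6 h array of pig F was left out, because it was out of register: its correlation with the average array was 0.240 in place and 0.739 after a shift of 384 places along the feature list, while the other 47 arrays reached at least 0.718 in place. For the 6 h lesion of pig J, 1 of the 2 columns repeated pig I's control exactly and was dropped. The SD of the table values on an array averaged 0.976 ± 0.237 (SD) over the 10 controls, 0.744 ± 0.0926 over the 9 lesions of 6 h and 0.805 ± 0.0985 over the 10 of 2 d. It averaged 0.607 ± 0.158 over the 9 lesions of 7 d and 0.643 ± 0.196 over the 9 of 21 d. It moved with lesion age, and its part in the results was not tested apart from the alternatives given beside them. Over 347 pairs of features sharing a symbol the median Pearson r was 0.0081, against -0.0054 over 20768 pairs with different symbols (47 samples, each animal's mean subtracted). The symbol of each feature is therefore the annotation's, and was not borne out by the values. Of 65 features listed for 14 sarcomeric genes, 36 (55.4%) had a mean above the median of all features. These levels cannot test the muscle label, since the symbols themselves were not borne out.

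Of the 10 features, 3 were called in at least 1 lesion age. TUBA1B 5631 fell by 0.23 ± 0.0630 (SE) at 7 d. ACTB 7799 rose by 0.25 ± 0.0718 at 7 d and by 0.20 ± 0.0718 at 21 d, and ACTB 5511 rose by 0.35 ± 0.123 at 21 d. At 6 h and 2 d none of the 10 was called by limma. At each of these ages 1 had an unadjusted p below 0.05, against 515 and 170 of all 1908 features. Neither CFL1 feature was called at any age on this scale. Among all 1908 features, 11.8% were called for the 6 h lesions, 0.734% for 2 d, 25.4% for 7 d (10.7% higher and 14.6% lower) and 14.7% for 21 d (6.5% higher), so 2 of 10 at 7 d (1 higher, 1 lower) and 2 of 10 at 21 d (both higher) lie near the background. The median difference of the 10 features was 0.019, 0.014, 0.065 and 0.053 from the youngest lesions to the oldest, with 5 higher and 5 lower at each age. Over all features the medians were -0.016, -0.021, -0.0089 and -0.00092 in the same order. The split of calls over all features depended on the scale: from 6 h to 21 d, 132 were higher and 93 lower, then 14 and 0, 205 and 279, and 124 and 157, against 103 and 393, 18 and 10, 249 and 495, and 178 and 530 on table values without normalization.

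**Figure D1:**
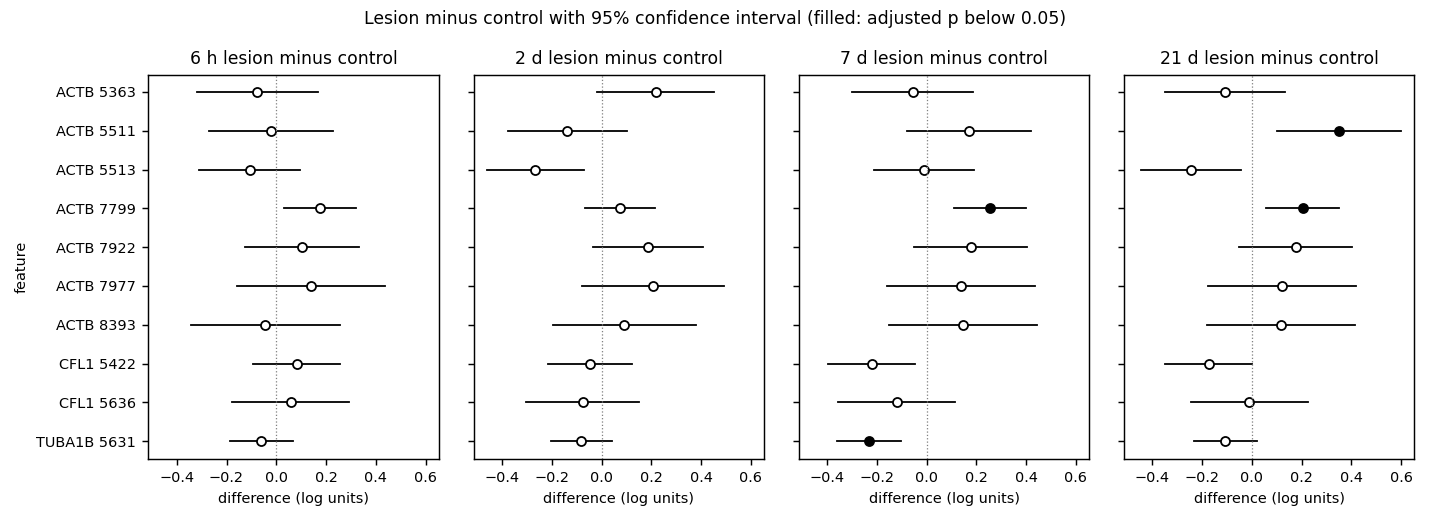
Difference from control in log units (horizontal axis) with its 95% confidence interval for each of the 10 features (vertical axis), in 1 panel per lesion age; filled points have an adjusted p below 0.05. Only ACTB 7799 and TUBA1B 5631 are filled at 7 d, on opposite sides of 0, and only ACTB 5511 and ACTB 7799 at 21 d.

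ACTB 7799 had the tightest controls of the ACTB features, with an SD of 0.056 on normalized values and 0.20 in the table values. It was dim, its mean above that of only 11.3% of features. The 10 controls ran from -0.53 to -0.33 with a median of -0.44. The 9 lesions of 6 h ran from -0.48 to -0.077 (median -0.31), and the 10 lesions of 2 d from -0.57 to -0.11 (median -0.42). The 9 lesions of 7 d ran from -0.41 to 0.067 (median -0.14), and the 9 lesions of 21 d from -0.53 to 0.0058 (median -0.19). Lesions of every age reached above the highest control, and lesions of every age also overlapped the controls. In order of the means, 7 d stood highest (-0.18 ± 0.18, SD), then 21 d (-0.24 ± 0.17), 6 h (-0.28 ± 0.14), 2 d (-0.37 ± 0.14) and control (-0.44 ± 0.056). No step between 2 lesion ages was called for it.

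For ACTB 7799 the difference from control was 0.18 ± 0.0718 (SE) at 6 h (limma adjusted p = 0.104, higher in 8 of 9 animals) and 0.074 ± 0.0695 at 2 d (adjusted p = 0.719). At 7 d it was 0.25 ± 0.0718 with an adjusted p of 0.00747, and 8 of 9 animals were higher, from -0.0040 in pig E to 0.60 in pig F. On this normalized scale that is 1.19-fold if the logarithm is to base 2 and 1.29-fold if it is natural. The size depended on the scale: the 7 d difference was 0.42 on table values and 0.44 on median-centred values. In bulk muscle, more or fewer cells of a type and more or less RNA per cell cannot be told apart, here and in all that follows. At 21 d the difference of 0.20 had an adjusted p of 0.0493, with 7 of 9 animals higher. The 7 d call was kept without any single pig, and was lost when the running median of neighbouring features was subtracted (0.16, adjusted p = 0.205). The 21 d call was lost without pig C, D, F, G, H, I, J or L, with adjusted p from 0.0575 to 0.117 and differences from 0.17 to 0.20, and under several of the alternatives given in the closing section.

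ACTB 5511 was the other ACTB feature called. Its controls ran from -0.24 to 0.35 (median 0.22), the 6 h lesions from -0.18 to 0.71 (median 0.079) and the 2 d lesions from -0.25 to 0.24 (median -0.055). The 7 d lesions ran from -0.21 to 1.10 (median 0.21) and the 21 d lesions from -0.0070 to 0.86 (median 0.46). The 2 d lesions lay within the range of the controls or just below it, whereas most 21 d lesions lay above the highest control. In order of the means, 21 d was highest (0.49 ± 0.28, SD), followed by 7 d (0.29 ± 0.37), control (0.12 ± 0.19), 6 h (0.092 ± 0.27) and 2 d (-0.018 ± 0.19). Of all steps between neighbours in that order, none was called.

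The rise of ACTB 5511 at 21 d against control was 0.35 ± 0.123 (SE; limma adjusted p = 0.0482), with 8 of 9 animals higher and pig J at -0.27. It corresponds to 1.28-fold in base 2 and 1.42-fold on the natural scale. The call was lost without pig C, D, E, F, I, K or L (adjusted p from 0.0628 to 0.129, differences from 0.31 to 0.38), and on table values without normalization the difference was 0.15 (adjusted p = 0.346). The 21 d lesions stood further from the 2 d lesions than from the controls, by 0.49 ± 0.123 (adjusted p = 0.00777, higher in 8 of 9 animals), where 6.92% of all features were called (4.66% higher). The features called in that step numbered 132, against 75 on table values, 204 with array weights and 44 with only the compared groups in the fit. Without pig D the difference of ACTB 5511 in that step was 0.42 (adjusted p = 0.0549), with only the 2 d and 21 d samples in the fit 0.48 (adjusted p = 0.109), and on table values 0.42 (adjusted p = 0.0526). In the other 5 steps between lesion ages, 0 of the 10 features were called by limma, where 6.18% of all features were called between 6 h and 2 d, 16.5% between 2 d and 7 d, 0.681% between 7 d and 21 d, and 1.62% in both steps from 6 h to 7 d and to 21 d. At an unadjusted p below 0.05 they numbered 1, 6, 1, 2 and 2 in the same order. Of all 1908 features, 341, 524, 163, 190 and 182 passed that threshold.

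**Figure D2:**
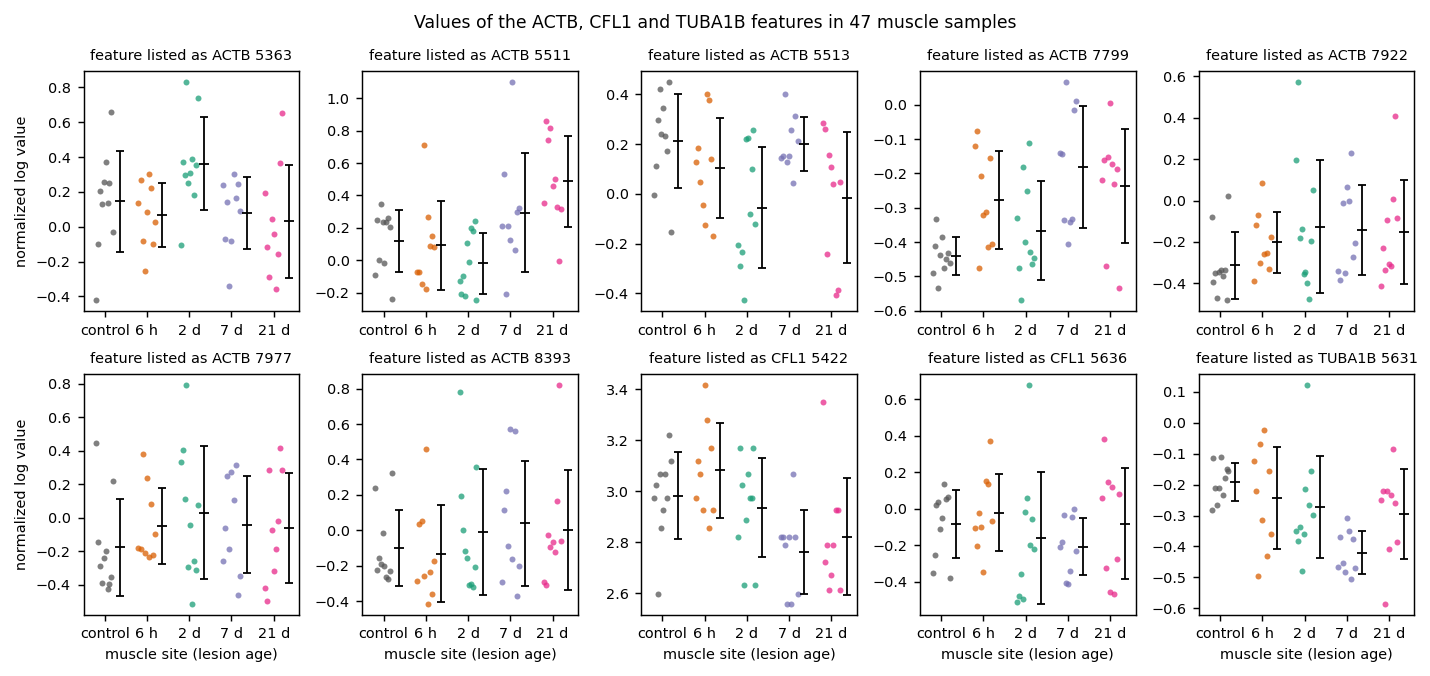
Normalized log value (vertical axis, own range in each panel) of each feature in the 47 samples, by muscle site and lesion age (horizontal axis); points are samples and bars are the mean ± SD. The 7 d lesions of TUBA1B 5631 all lie below the lowest control on this normalized scale, while the ACTB panels overlap between control and every lesion age.

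The other 5 ACTB features were not called at any age. ACTB 5513, spotted 2 places from ACTB 5511 on the feature list, had a difference of the opposite sign at 21 d. Its controls lay between -0.16 and 0.45 (median 0.24), its 2 d lesions between -0.43 and 0.26 (median -0.10), and its 21 d lesions between -0.41 and 0.28 (median 0.047). The 7 d lesions kept within 0.045 and 0.40, inside the control range. The differences of ACTB 5513 were -0.27 ± 0.0961 (SE) at 2 d, lower in 9 of 10 animals, with an adjusted p of 0.286, and -0.24 ± 0.0994 at 21 d, with an adjusted p of 0.0952. Without pig C the 21 d difference was -0.31 (adjusted p = 0.0379), and on table values it was -0.36 (adjusted p = 0.0296).

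ACTB 5363 was at 0.15 ± 0.29 (SD) in controls and 0.36 ± 0.27 at 2 d, a difference of 0.22 (adjusted p = 0.581), and its differences at the other ages lay between -0.11 and -0.057. ACTB 7922, ACTB 7977 and ACTB 8393 had control medians of -0.35, -0.26 and -0.20. The highest value of each of these 3 was in a lesion, and only that of ACTB 8393 lay far from its group by Dixon's test. ACTB 7922 reached 0.57 in the 2 d lesion of pig D, ACTB 7977 reached 0.79 in the 2 d lesion of pig F, and ACTB 8393 reached 0.82 in the 21 d lesion of pig J. Their differences over the 4 ages ran from 0.10 to 0.19, from 0.12 to 0.21 and from -0.044 to 0.15, with adjusted p from 0.277 to 0.917. On table values ACTB 7922 was called, with differences of 0.37 in the 7 d lesions (adjusted p = 0.0245) and 0.35 in the 21 d lesions (adjusted p = 0.0335). On normalized values the differences were 0.18 at both ages, and -0.027 and -0.021 when the SD of each array was added as a covariate to the fit of those normalized values.

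Whether features listed for the same gene differed in their response was tested within animals. Over all pairs of features of ACTB and of CFL1 and 4 lesion ages there were 88 exact sign-flip tests, two-sided, of which 18 had an exact p below 0.05 and 0 passed after adjustment over the 88 (lowest adjusted p = 0.172). ACTB 5511 minus ACTB 5513 at 21 d was 0.59 ± 0.34 (SD, n = 9), above 0 in 9 of 9 animals, with an exact p of 0.00391, the smallest that 9 animals allow. On table values the same difference was 0.50, and 10 of the 88 tests passed after adjustment.

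CFL1 5422 lay near the top of the array's range, its mean above that of 99.2% of features. Its normalized controls ran from 2.60 to 3.22 (median 3.0), the 6 h lesions from 2.85 to 3.42 (median 3.07) and the 2 d lesions from 2.63 to 3.17 (median 2.98). The 7 d lesions ran from 2.56 to 3.07 (median 2.82) and the 21 d lesions from 2.61 to 3.35 (median 2.79). Most lesions of 7 d and 21 d lay below the control median, and both ages overlapped the controls. By mean the order was 6 h (3.08 ± 0.19, SD), control (2.98 ± 0.17), 2 d (2.94 ± 0.19), 21 d (2.82 ± 0.23) and 7 d (2.76 ± 0.17), and no step between lesion ages was called.

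The difference of CFL1 5422 from control at 7 d was -0.22 ± 0.0865 (SE), lower in 7 of 9 animals, with a limma adjusted p of 0.0556. Its 95% confidence interval ran from -0.40 to -0.047. At 21 d the difference was -0.17 ± 0.0865 (adjusted p = 0.191). Without pig C the 7 d difference was -0.23 (adjusted p = 0.0432) and the 21 d difference -0.24 (adjusted p = 0.0452), and without pig E the 7 d difference was -0.27 (adjusted p = 0.0354). The size depended on the scale. In the table values the controls had a mean of 3.52 ± 0.70 (SD), the 6 h lesions 3.03 ± 0.40 and the 2 d lesions 3.12 ± 0.51, while the 7 d lesions had 2.34 ± 0.53 and the 21 d lesions 2.39 ± 0.63. On those values CFL1 5422 differed by -1.14 at 7 d (adjusted p = 0.000492). At 21 d the difference was -1.17 (adjusted p = 0.00051), and at 6 h it was at -0.51 where normalized values gave 0.082.

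CFL1 5636, the other feature listed for cofilin-1, stayed near 0. Its group means were -0.083 ± 0.18 (SD) for controls and, from the youngest lesions to the oldest, -0.020 ± 0.21, -0.16 ± 0.36, -0.21 ± 0.16 and -0.081 ± 0.30. All 5 ranges overlapped, and the largest difference from control, -0.12 at 7 d, had an adjusted p of 0.493. Across the 47 samples its r with CFL1 5422 was 0.027.

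**Figure D3:**
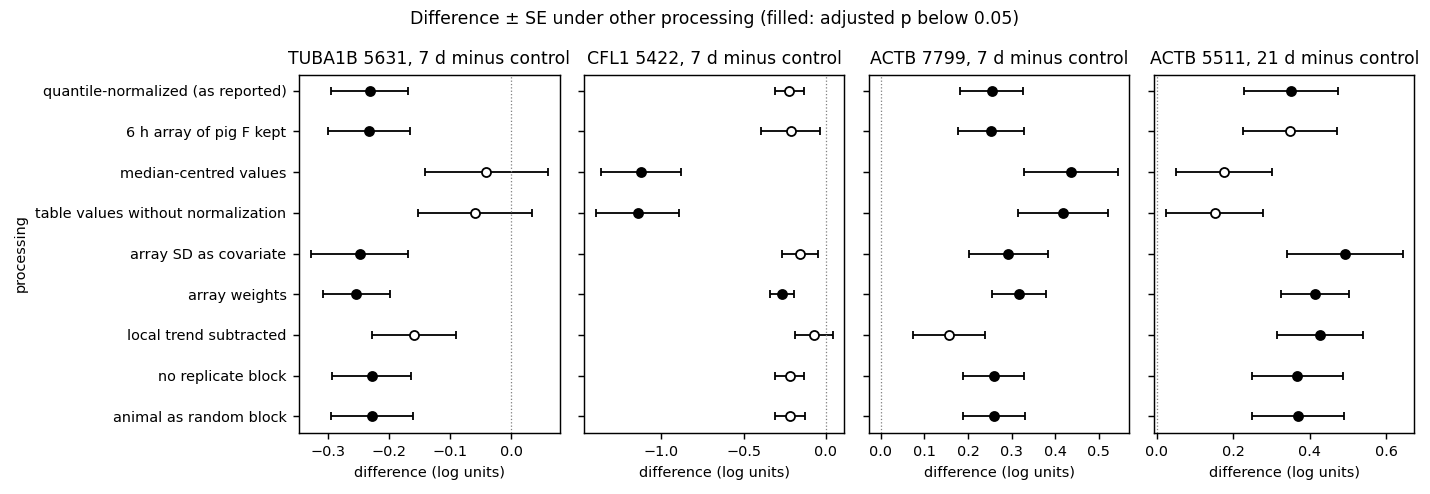
Difference from control ± SE in log units (horizontal axis) of TUBA1B 5631, CFL1 5422 and ACTB 7799 at 7 d and ACTB 5511 at 21 d under a selection of the ways of processing (vertical axis). Fits without single pigs or with only the compared groups are among those not drawn. Filled points have an adjusted p below 0.05. CFL1 5422 goes from -0.22 to -1.14 and TUBA1B 5631 from -0.23 to -0.059 when the arrays are not normalized.

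TUBA1B 5631 was the only one of the 10 features with a lesion age that did not overlap the controls on normalized values. It was dim, its mean above that of only 13.2% of features. Its controls were tight, from -0.28 to -0.11 (median -0.19). The 6 h lesions spread from -0.50 to -0.024 (median -0.22), the 2 d lesions from -0.48 to 0.12 (median -0.32) and the 21 d lesions from -0.59 to -0.086 (median -0.25), all 3 ages overlapping the controls. The 7 d lesions ran from -0.50 to -0.31 (median -0.45), so that the highest 7 d lesion lay below the lowest control. In the table values without normalization the controls ran from -0.43 to -0.10 and the 7 d lesions from -0.46 to -0.17, and they overlapped. Among all 1908 features, 4.66% had control and 7 d samples that did not overlap. The means fell in the order control (-0.19 ± 0.060, SD), 6 h (-0.24 ± 0.17), 2 d (-0.27 ± 0.17), 21 d (-0.29 ± 0.14) and 7 d (-0.42 ± 0.069), and no step between lesion ages was called.

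At 7 d TUBA1B 5631 fell by 0.23 ± 0.0630 (SE; 95% confidence interval -0.36 to -0.10, limma adjusted p = 0.00535). It was lower in 9 of 9 animals, from -0.31 in pig L to -0.097 in pig G, a median of -0.24. The size corresponds to 1.17-fold in base 2 and 1.26-fold on the natural scale. The differences at the other ages were -0.060 at 6 h, -0.081 at 2 d and -0.11 at 21 d, with adjusted p of 0.620, 0.678 and 0.279. The 7 d call was kept without any single pig (-0.25 to -0.22). It was not kept on table values (-0.059, adjusted p = 0.622), on median-centred values (-0.041, adjusted p = 0.755) or with the running median of neighbouring features subtracted (-0.16, adjusted p = 0.0992).

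A test over all 4 lesion ages at once called ACTB 5511 (F = 4.70, adjusted p = 0.0196), ACTB 7799 (F = 4.16, adjusted p = 0.0333) and CFL1 5422 (F = 3.94, adjusted p = 0.0416), where 22.6% of all features were called. TUBA1B 5631 (F = 3.63, adjusted p = 0.0566) and ACTB 5513 (F = 3.26, adjusted p = 0.0812) came next, and the remaining 5 had adjusted p from 0.177 to 0.820. The call of ACTB 5511 was lost without pig C (adjusted p = 0.0565), D (0.107), E (0.0535) or F (0.0686), and that of ACTB 7799 without pig C (0.0972), D (0.0903), F (0.114), J (0.0552), K (0.0531) or L (0.0839). That of CFL1 5422 was kept without pig C or J only, and was otherwise at adjusted p from 0.0511 to 0.171. Without pig C, ACTB 5363 was called (F = 3.91, adjusted p = 0.0456).

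How the features varied among themselves was described by the correlation over the 47 samples after each animal's mean was subtracted; the samples share animals and arrays, and the values give no test. ACTB 7922, ACTB 7977 and ACTB 8393 moved together, with an r of 0.76 between ACTB 7922 and ACTB 7977, 0.71 between ACTB 7977 and ACTB 8393, and 0.81 between ACTB 7922 and ACTB 8393. ACTB 5513 ran against them, at -0.54 with ACTB 7922, -0.63 with ACTB 7977 and -0.49 with ACTB 8393. ACTB 5511 and ACTB 5513 were related at 0.21 only. Over all 21 pairs of ACTB features the median was -0.14. On table values the 3 pairs ran from 0.79 to 0.88, and from 0.49 to 0.56 with the running median of neighbouring features subtracted.

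**Figure D4:**
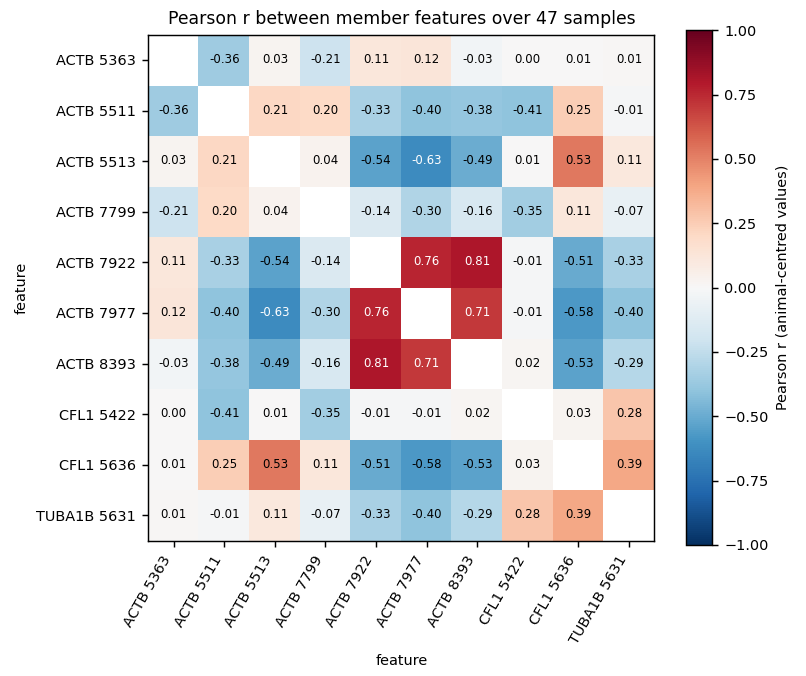
Pearson r between the 10 features (both axes) over 47 samples, each animal's mean subtracted; the colour scale runs from -1 to 1 and each cell gives its r. ACTB 7922, 7977 and 8393 form a block of high r (0.71 to 0.81), with ACTB 5513 and CFL1 5636 on the negative side of it.

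That block was shared with many other features. ACTB 7922 had an r of at least 0.7 with 157 other features (8.23%), among them features of 15 other named genes; ACTB 7977 had 129 and ACTB 8393 had 138. ACTB 5513 had 30, CFL1 5636 had 6, ACTB 5511 had 4 and ACTB 7799 had 1, and the other 3 had 0. The 3 named genes most like each feature were picked by the highest r among 120 other genes, each entered with its feature of highest r. Of the 206 features with 1 gene symbol, 65 are listed for sarcomeric genes, and no enrichment was tested. MYH1, a fast myosin heavy chain, was first for ACTB 7922 (r = 0.88) and for ACTB 8393 (0.85), and MYLPF, the fast regulatory myosin light chain, for ACTB 7977 (0.86). Next came RPS3 (0.85) and NDUFA4 (0.84) for ACTB 7922, RYR1, the calcium release channel of muscle (0.85), and TNNC2, fast troponin C (0.84), for ACTB 8393, and AWN (0.81) and BTG2 (0.81) for ACTB 7977.

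The highest r was lower for the other 7 features. ACTB 7799 was nearest to JAK1 (r = 0.59), MYLPF (0.59) and UGP2 (0.56), and ACTB 5511 to TPM2, a tropomyosin of muscle thin filaments (0.58), XIRP2, an actin-binding protein of muscle (0.54), and ANPEP (0.53). TUBA1B 5631 was nearest to PRKACA (0.54), ATP2A2, the calcium pump of the sarcoplasmic reticulum (0.54), and MYLPF (0.48). CFL1 5422 was nearest to PFKM, the muscle phosphofructokinase (0.62), POMC (0.57) and MYLPF (0.51), and CFL1 5636 to PSME1 (0.67), ACADS (0.62) and MYLPF (0.62). ACTB 5513 was nearest to PYGM, muscle glycogen phosphorylase (0.77), RPL19 (0.70) and B2M (0.64), and ACTB 5363 to TNNT1 (0.50), QDPR (0.46) and OXTR (0.45). MYLPF recurred through 5 different features of that gene, and a gene with more features has more chances to be picked.

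Few other cytoskeleton genes had values. Of a list of 33 genes that nucleate, cap, bundle or crosslink actin filaments or coat them, FLNA, the crosslinker filamin A, and TPM3, a tropomyosin, were measured, 1 feature each. TPM3 fell by 0.35 ± 0.0994 at 21 d (SE; limma adjusted p = 0.0135), and 0 of the other 7 comparisons of the 2 genes were called (adjusted p from 0.214 to 0.919). Without pig D that difference of TPM3 was -0.30 (adjusted p = 0.0546), without pig J -0.27 (adjusted p = 0.0615), and on table values -1.19. With the array SD as a covariate it was -0.27 (adjusted p = 0.234), with array weights -0.20 (adjusted p = 0.0591), with the 6 h array of pig F kept -0.35 (adjusted p = 0.0829) and with only the compared groups in the fit -0.35 (adjusted p = 0.0986). Of 6 actin genes only ACTB was measured, of 21 genes of actin turnover and monomer binding only CFL1, and of 29 tubulins and microtubule proteins only TUBA1B. None of 7 non-muscle intermediate filament and lamin genes had a value.

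Markers of the cells that could bring cytoplasmic actin and tubulin into a lesion were nearly all unmeasured. No gene of the macrophage, neutrophil, lymphocyte, myoblast, adipocyte or red blood cell lists had a value. FN1, fibronectin, the measured gene of the fibroblast list, differed from control by -0.19, -0.0085, -0.18 and -0.23 from the youngest lesions to the oldest, none called. PECAM1, of the endothelial list, differed by -0.094, -0.070, -0.063 and -0.068, none called. Of the 65 sarcomeric features, 4 were called higher and 6 lower at 6 h, 0 and 0 at 2 d, 4 and 18 at 7 d, and 3 and 10 at 21 d. Over all 1908 features the counts were 132 and 93, 14 and 0, 205 and 279, and 124 and 157 in the same order. Their symbols were not borne out by the values, and no enrichment was tested. The part of the cell makeup in the ACTB and TUBA1B differences was not tested.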

How the data were processed

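Per the labels, total RNA of each muscle sample was copied into 33P-labelled cDNA and hybridised to an array with duplicated parts, read by phosphor imaging, and quantified on a grid. The deposited values are logarithms (unit: other) from -1.33 to 5.00; the base, background correction and centring by the authors are not given in the sources used here. Of 4608 features listed, 1908 had a value in all 90 columns, 2695 in none and 5 in some. The columns cover 48 samples: 42 have 2 columns, identical in 41 cases, and 6 have 1. Columns of a sample were averaged, since identical columns are no replicates.

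Values of 47 samples were quantile-normalized and fitted by limma 3.58.1 (lmFit and eBayes, R 4.3.3) with terms for the 5 groups and the animal. Before normalization their array medians ranged from 0.0183 to 0.124 and their array SDs from 0.384 to 1.26. The animal block comes from the design: every pig gave a control and lesions. Deviations from group means correlated at a median of -0.024 within and -0.025 between animals. P-values were adjusted over 1908 features. The precision is limited by 9 or 10 samples a group, and array depth has no count. Alternatives were other normalizations, blocks, weights and samples left out. Figures used matplotlib 3.10.9 and numpy 2.4.6. Gene symbols come from the platform annotation, and the identifiers of ACTB, CFL1 and TUBA1B matched RefSeq's gene table.

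All features of the 3 genes are described, with the 3 most like named genes of each and the measured genes of fixed lists. The members, lists and tests were chosen with earlier results of these data known.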

Additional observations from a re-analysis of the deposited data

Results flagged for a closer look

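In 50 sets of values (10 features in 5 groups), 4 had a sample far from the others by Dixon's test, where chance gives about 1 in 20. In ACTB 5511 the 6 h lesion of pig G was at 0.71, with the next at 0.27. In ACTB 8393 the 21 d lesion of pig J was at 0.82, with the next at 0.17. In CFL1 5422 the 21 d lesion of pig C was at 3.35, with the next at 2.93. In CFL1 5636 the 2 d lesion of pig I was at 0.68, with the next at 0.061.

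In the main fit the response of ACTB 5511 differed between lesion ages by a test of the difference itself. It was 0.49 higher at 21 d than at 2 d (limma adjusted p = 0.00777). The call was lost without pig D (0.42, adjusted p = 0.0549) and on table values (0.42, adjusted p = 0.0526). It was also lost with only the 2 d and 21 d samples in the fit (0.48, adjusted p = 0.109).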

How the results depend on the processing

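For the 10 features against control and the counts of all features called against control, values that changed sign or crossed the threshold are given by alternative (those of TPM3 and of the step from 2 d to 21 d stand beside their results), as differences in log units at the age named, as F for any age, or as numbers of all features called; the cause was not tested. On table values without normalization the calls of ACTB 5511 (0.15 at 21 d, F 3.14) and TUBA1B 5631 (-0.059 at 7 d) were lost. Calls were gained by ACTB 5513 (-0.36 at 21 d, F 3.58), ACTB 7799 (0.28 at 6 h), ACTB 7922 (0.37 at 7 d, 0.35 at 21 d) and CFL1 5422 (-1.14 at 7 d, -1.17 at 21 d). They were also gained in 10 tests between features of 1 gene, and by all features (496 at 6 h, 28 at 2 d, 744 at 7 d, 708 at 21 d). The sign turned for ACTB 8393 (0.10 at 6 h), CFL1 5422 (-0.51 at 6 h), CFL1 5636 (0.018 at 21 d) and TUBA1B 5631 (0.0075 at 21 d). Median-centred values lost the same calls (0.18, F 3.34, and -0.041) and gave ACTB 5513 -0.33 at 21 d, -0.43 at 2 d and F 3.52, ACTB 7799 0.29 at 6 h, ACTB 7922 0.38 at 7 d, 0.37 at 21 d and F 3.46, CFL1 5422 -1.13 at 7 d and -1.15 at 21 d, 10 such tests, and 518, 57, 782 and 742 features. The same signs turned, with 0.11, -0.51, 0.042 and 0.032.

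With the array SD as a covariate ACTB 7799 (0.24 at 21 d, F 3.13), CFL1 5422 (F 2.72) and all features (265 at 7 d, 111 at 21 d, 258 at any age) were called less, and ACTB 5513 was called (F 4.64). The sign turned for ACTB 5363 (0.034 at 6 h, 0.11 at 7 d, 0.051 at 21 d), ACTB 5511 (0.078 at 6 h), ACTB 5513 (0.056 at 6 h, 0.24 at 7 d), ACTB 7922 (-0.033 at 6 h, -0.027 at 7 d, -0.021 at 21 d), ACTB 7977 (-0.15 at 6 h, -0.29 at 7 d, -0.29 at 21 d), ACTB 8393 (-0.098 at 2 d, -0.25 at 7 d, -0.26 at 21 d) and CFL1 5636 (0.022 at 2 d, 0.081 at 7 d, 0.19 at 21 d), none called. With the running median of neighbouring features subtracted, calls were lost by ACTB 7799 (0.16 at 7 d, 0.086 at 21 d, F 1.26), CFL1 5422 (F 1.41), TUBA1B 5631 (-0.16 at 7 d) and all features (167 at 21 d), and ACTB 5513 gained one (F 4.20). The sign turned for ACTB 5363 (0.0050 at 6 h, 0.088 at 7 d, 0.0044 at 21 d), ACTB 5511 (0.034 at 6 h), ACTB 5513 (0.044 at 7 d), ACTB 7922 (-0.016 at 6 h), CFL1 5422 (0.078 at 2 d), CFL1 5636 (0.088 at 21 d) and TUBA1B 5631 (0.0026 at 6 h).

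With the 6 h array of pig F kept, ACTB 5511 (0.35 at 21 d), ACTB 7799 (0.20 at 21 d) and CFL1 5422 (F 0.53) lost their calls, 177 features were called at 21 d, and CFL1 5422 was at -0.17 at 6 h. Without pig I's control and pig J's 6 h lesion, ACTB 5511 (0.35 at 21 d) and ACTB 7799 (0.20 at 21 d, F 3.75) lost theirs, 148 features were called at 6 h, and TUBA1B 5631 was called (F 4.40). Both columns of that lesion averaged gave ACTB 7799 0.21 at 21 d, not called. With only the compared groups in the fit ACTB 5511 (0.33) and ACTB 7799 (0.20) at 21 d were not called, and 178 features were. Prior variances with trend and robust left ACTB 5511 at 0.35 at 21 d, not called, and called TUBA1B 5631 (F 4.02). Array weights called ACTB 7799 (0.18 at 6 h), CFL1 5422 (-0.27 at 7 d), TUBA1B 5631 (F 5.70) and more features (615 at 6 h, 53 at 2 d, 706 at any age), with ACTB 5513 at 0.0027 at 7 d. With dim features left out, ACTB 7799 and TUBA1B 5631 were not tested, and CFL1 5422 was called at 7 d (-0.22).

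With no replicate block CFL1 5636 was at 0.0020 at 21 d, and a random animal block gave 0.0036; neither block changed a call of the 10 features.

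Leaving out each pig in turn, F ran from 1.64 to 3.91 for ACTB 5363, from 3.05 to 5.91 for ACTB 5511, from 3.05 to 4.59 for ACTB 7799 and from 2.51 to 5.72 for CFL1 5422. At 6 h ACTB 5363 ran from -0.15 to 0.0056, ACTB 5511 from -0.084 to 0.021 and ACTB 8393 from -0.13 to 0.012. CFL1 5422 ran from -0.099 to 0.0024 at 2 d, from -0.27 to -0.19 at 7 d and from -0.24 to -0.12 at 21 d. ACTB 5513 ran from -0.056 to 0.024 at 7 d and from -0.31 to -0.20 at 21 d. At 21 d ACTB 5511 ran from 0.31 to 0.41, ACTB 7799 from 0.17 to 0.25, ACTB 8393 from -0.0054 to 0.19, CFL1 5636 from -0.089 to 0.067, and the features called from 169 (without pig I) to 325.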
